A study of Sus scrofa with 6 samples.

Results

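The genes of the ubiquitin system were examined for differences in DNA methylation between the backfat of Landrace pigs (LBF), a lean breed, and Rongchang pigs (RBF), a fat breed. In MeDIP-seq, the sequencing of methylated DNA after immunoprecipitation, methylated fragments are pulled down with an antibody, and a CpG that is more methylated gains more reads. The libraries came from 3 female Landrace and 3 female Rongchang pigs slaughtered at 210 days of age, each library from a separate animal and all pigs sharing 1 housing environment. The coordinates refer to the pig genome build Sscrofa10.2. The deposited table lists the differentially methylated regions (DMRs) that had been called between these same libraries, and gives for each pig the normalized read depth, averaged over the CpGs of the DMR. Members were all DMRs in a promoter, exon, intron or the 2 kb downstream of a gene whose human homologue carries a symbol of the ubiquitin or proteasome families (UBE, UBR, UBA, USP, OTU, FBX, RNF, TRIM, HERC, HECT, HECW, NEDD4, KLHL, KBTBD, CUL, ASB, SOCS, MARCH, WWP, SMURF, ITCH, PSM, COPS, BTRC and SKP). This gave 108 DMRs at 67 genes, out of 14163 DMRs in the table and 4349 DMRs in gene elements with a human symbol. No MARCH gene was matched, and 4 symbols in the table are written as dates in March, at 9 DMRs. Such dates arise from MARCH as well as MARC symbols. These DMRs were not assigned to genes by other identifiers and were not counted, so MARCH members may be missing.

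Ubiquitin is a small protein that is joined to other proteins by the successive action of an activating enzyme (E1), a conjugating enzyme (E2) and a ligase (E3), and chains of it mark proteins for degradation by the proteasome. The ligases choose the substrate. HECT ligases carry ubiquitin themselves, RING and TRIM ligases bring the E2 to the substrate, and cullin ligases do so through exchangeable adaptors with an F-box, a BTB-Kelch or a SOCS-box domain. Deubiquitinases remove ubiquitin again. In fat tissue this system is known for the turnover of insulin signaling proteins, of adipogenic transcription factors and of enzymes of lipid synthesis. The DMRs covered conjugating enzymes, HECT, RING, TRIM, UBR and cullin ligases, adaptors, deubiquitinases and the proteasome, whereas no E1 gene held a DMR. The table holds DNA methylation of called regions, so fat cell markers could not be checked, and a difference in the mix of cells cannot be told apart from a difference in methylation within cells.

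Most ubiquitin system DMRs had the higher depth in LBF. LBF had the higher depth at 87 and RBF at 21 of the 108, or 80.6% higher in LBF, beside 84.8% of all DMRs and 83.0% of DMRs in gene elements with a human symbol. In none of the 108 did the depths of LBF and RBF overlap, as in 100% of all DMRs, which follows from how the table was made. With limma on log2(depth + 1), adjusted over all 14163 DMRs by Benjamini-Hochberg at a threshold of 0.05, 86 DMRs passed as higher in LBF, 21 passed as lower and 1 did not pass. Across all regions 99.5% passed, with 84.5% higher and 15.1% lower, and 99.4% of the DMRs in gene elements with a human symbol passed (82.5% higher and 16.9% lower), so that the share of members called lies near the background. Because the DMRs were called on these same pigs, the tests only set each difference against the spread of pigs within a breed. They give no independent evidence of a difference. Throughout, a log2 fold change is LBF over RBF on the log2(depth + 1) scale, which understates the change of DMRs at low depth. Errors are SD with n = 3 pigs per breed unless marked SE. Every adjusted p comes from this limma fit, except where another setting is named, for which limma was fitted and adjusted anew.

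The members differed in size from a log2 fold change of -4.82 to 4.17. The median was 1.35, beside 1.64 over all DMRs and 1.58 over DMRs in gene elements with a human symbol. With each gene counted by its own median, the median was 1.18 over the 67 genes and 1.52 over the 2686 genes with a human symbol. Over the members the median depth was 36.6, 41.1 and 35.3 in LBF pigs, against 15.6, 18.04 and 12.4 in RBF pigs. All LBF libraries thus lay above all RBF libraries, and the same order held over all DMRs, at 34.1 to 35.4 in LBF and 9.40 to 14.4 in RBF. A depth of 0 was listed in at least 1 LBF library for 3 members and in at least 1 RBF library for 7. After rescaling each library to a common median depth over all DMRs (equal library medians), the median over all DMRs of the log2 fold change moved by -1.41. Of the members, 50 were then higher and 58 lower in LBF, or 46.3% higher, beside 56.6% of DMRs in gene elements with a human symbol and 59.8% of all DMRs. Under this scaling 8 members passed limma as higher and 25 as lower, beside 402 and 849 of the 4349 DMRs in gene elements with a human symbol. Of all 14163 DMRs, 1596 passed as higher and 2409 as lower, so more lower than higher calls were found in the background too. This scaling takes its reference from regions that were themselves selected for differences, and it left a median log2 fold change of 0.23 over all DMRs and -0.07 over the members. The part of the lower RBF depth in the differences was not tested.

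**Figure D1:**
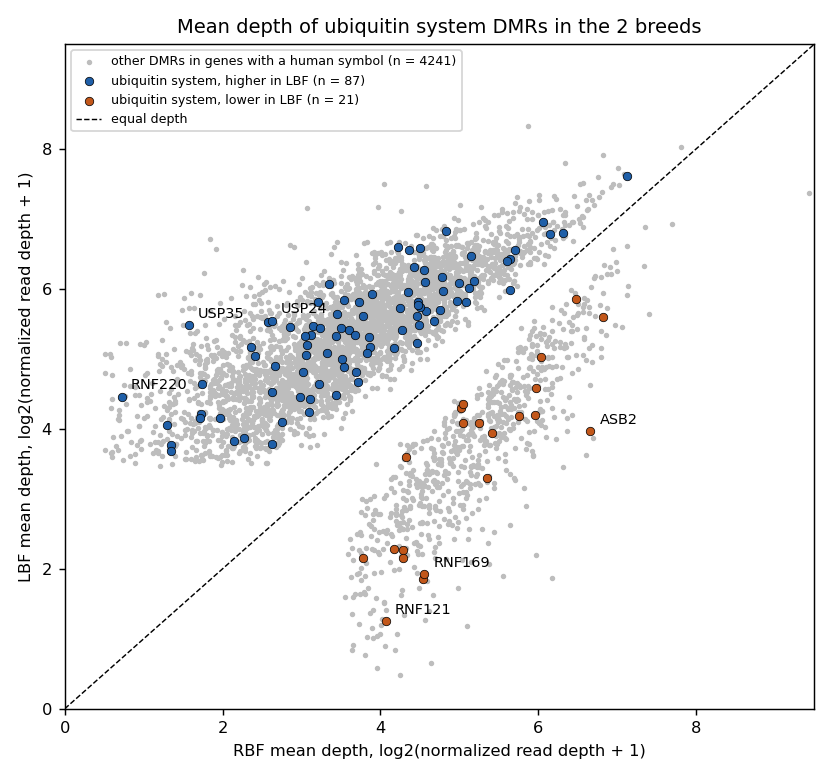
Mean depth of each DMR in RBF (x axis) and LBF (y axis), both as log2(normalized read depth + 1), for 108 ubiquitin system DMRs over the other DMRs in genes with a human symbol (grey). The 87 DMRs higher in LBF lie above the line of equal depth and the 21 lower ones below it, within the 2 clouds that the other DMRs form. Under equal library medians 37 of the 108 turned in direction.

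Conjugating enzymes held 13 DMRs at 8 genes, with 10 higher and 3 lower in LBF. UBE2G1 had the largest fold of this group, at an intron on chromosome 12, 52259298 to 52259454. Its depths were 52.9, 42.2 and 34.2 in the LBF pigs, against 14.8, 1.34 and 2.58 in the RBF pigs. The RBF libraries stood apart from each other, with the first far above the others, but none reached the LBF range (43.1 ± 9.35 in LBF against 6.24 ± 7.44 in RBF; log2 fold change 3.09 ± 0.69 SE, adjusted p = 0.0052). Both DMRs of UBE2H lay in the first intron and were higher in LBF, with log2 fold changes of 2.74 and 1.74. UBE2F, the E2 that attaches NEDD8 to cullins, was higher in LBF at an intron (48.9 ± 7.79 in LBF against 9.96 ± 6.50 in RBF; log2 fold change 2.4). UBE2Z, an E2 charged by UBA6, was higher in LBF at its last exon and at an intron that is also annotated to SNORA11 (log2 fold changes 1.81 and 1.49). UBE2V1, which forms lysine-63 chains as the inactive partner of another E2, was lower in LBF at its first intron, at 19.5 ± 1.67 in LBF against 31.9 ± 0.865 in RBF (log2 fold change -0.69, adjusted p = 0.0089). At equal library medians 9 DMRs of the group were higher and 4 lower, with 1 and 3 past limma, the former a DMR of UBE2H.

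UBE2E2, whose human homologue is a locus of type 2 diabetes risk, held DMRs of both directions within 40375 bp of chromosome 13. In the last intron, a DMR from 11761878 to 11761995 had depths of 98.7, 96.9 and 82.8 in the LBF pigs, against 4.57, 46.9 and 7.31 in the RBF pigs. The second RBF library lay far above the other RBF libraries and below all LBF libraries (log2 fold change 2.84, adjusted p = 0.01). A DMR 18.77 kb further, in the 2 kb downstream, had 3.23, 4.35 and 3.86 in the LBF pigs, against 16, 22.3 and 17.1 in the RBF pigs. Here the order was reversed, with every RBF library above every LBF library (log2 fold change -2.01 ± 0.22 SE, adjusted p = 0.0013). The third DMR, also in the last intron, was higher in LBF under the authors' scaling (log2 fold change 0.88) and turned with equal library medians (-0.58).

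HECT ligases held 14 DMRs at 4 genes, 13 of them with the higher depth in LBF and 1 in RBF. Equal library medians gave 4 higher and 10 lower. Of these DMRs 9 lay in HERC3, a member of the small HERC ligases, within 117380 bp of chromosome 8 (139760015 to 139877394). All 9 were intronic, over 63 CpGs in total, and 8 were higher and 1 lower in LBF. The largest fold was at 139818077 to 139818294, with 38.1, 46.7 and 43.2 in the LBF pigs, against 14.2, 10.9 and 5.81 in the RBF pigs. The third RBF library was the lowest there, and the breeds were far apart (log2 fold change 2.02 ± 0.33 SE, adjusted p = 0.0022). The most covered DMR of HERC3, at the last intron and on a CpG island shore, had 124 ± 7.98 in LBF against 65.9 ± 13.4 in RBF (log2 fold change 0.92). At the first intron, from 139877250 to 139877394, the depths were 33.5, 33.4 and 27.7 in the LBF pigs, against 69.1, 61.7 and 63.4 in the RBF pigs. This DMR, the only one of HERC3 that was lower in LBF, lay 16.71 kb from the nearest higher one (log2 fold change -1.02 ± 0.19 SE, adjusted p = 0.003). At 139793357 to 139793471 the log2 fold change was only 0.48 (adjusted p = 0.037), and the call ended without LBF replicate 1, 2 or 3, at an adjusted p of 0.083, 0.093 and 0.11. Under equal library medians it passed limma as lower (-1.0, adjusted p = 0.015). On the scale of equal library medians 6 of the 8 higher DMRs of HERC3 turned, and 2 stayed higher without passing limma.

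HECW2, a ligase of the NEDD4 family, was higher in LBF at both of its intronic DMRs on chromosome 15. At 111220557 to 111220748 the depths were 24.8, 24.7 and 22.7 in the LBF pigs, against 0, 6.25 and 0.807 in the RBF pigs. The LBF libraries were close together while the second RBF library exceeded the other RBF libraries (log2 fold change 3.41 ± 0.69 SE, adjusted p = 0.0038). At 111242282 to 111242462 depth was 113 ± 12.96 in LBF against 27.5 ± 14.2 in RBF (log2 fold change 2.16). Neither passed limma with equal library medians. UBE3C, a ligase that binds the proteasome, held the most covered of all 108 DMRs, on a CpG island shore, at 196 ± 9.48 in LBF against 139 ± 9.09 in RBF. Its log2 fold change of 0.49 was among the smallest (adjusted p = 0.032), and the call ended without LBF replicate 1, 2 or 3 or without RBF replicate 1 (adjusted p = 0.085, 0.072, 0.10 and 0.064). Under equal library medians it was -1.0 and passed limma as lower (adjusted p = 0.023). UBE3A, the ligase lost in Angelman syndrome, was higher in LBF at an intron, at 55.3 ± 3.10 in LBF against 32.8 ± 6.91 in RBF (log2 fold change 0.75, and -0.71 with equal library medians).

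UBR3 and UBR4 belong to the UBR box family of ligases, which includes the N-recognins that bind the first residue of a protein. Each held a DMR of either direction. In UBR3 an intronic DMR on chromosome 15, 85467696 to 85467866 had 38.2, 40.1 and 26.9 in the LBF pigs, against 7.94, 3.24 and 1.29 in the RBF pigs. All LBF libraries were well above all RBF libraries (log2 fold change 3.01 ± 0.50 SE, adjusted p = 0.0024). At another intron, 91.18 kb away (85376355 to 85376516), the depths were 4.99, 3.22 and 2.08 in the LBF pigs, against 19.6, 16.01 and 19.9 in the RBF pigs. The LBF libraries were now the low ones (log2 fold change -2.18 ± 0.29 SE, adjusted p = 0.0016). Both calls of UBR3 stood with equal library medians, in the same directions (1.72 and -3.43). In UBR4 the higher DMR (50.6 ± 5.12 in LBF against 22.97 ± 5.94 in RBF, log2 fold change 1.13) and the lower DMR (17.3 ± 7.96 in LBF against 61.5 ± 2.214 in RBF, log2 fold change -1.88) lay 7.8 kb apart on chromosome 6. The higher one turned with equal library medians (-0.33).

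RING finger ligases were the largest group, with 24 DMRs at 11 genes, of which 18 were higher and 6 lower in LBF (or 13 and 11 at equal library medians). RNF220, a ligase that acts on WNT and hedgehog signaling proteins, had the largest fold, at an intron on a CpG island shore (chromosome 6, 154220806 to 154220925). Its depths were 18.5, 23.4 and 21.2 in the LBF pigs, against 0.435, 0.223 and 1.29 in the RBF pigs. The RBF libraries were all near 0 and the LBF libraries close to each other (log2 fold change 3.78 ± 0.28 SE, adjusted p = 0.0012). This DMR also passed with equal library medians (log2 fold change 2.73). RNF128, known as GRAIL, a ligase of T cell anergy that lies on the X chromosome, was higher in LBF at an intron with 17 CpGs, at 95.02 ± 14.1 in LBF against 21.6 ± 12.8 in RBF. RNF214 was higher at all 3 of its intronic DMRs (log2 fold changes 2.46, 1.36 and 2.18), of which 1 turned with equal library medians, and RNF157 at both of its DMRs. The DMR downstream of RNF157 had an RBF depth of 0 in the third library and 33.03 ± 2.44 in LBF against 9.04 ± 7.89 in RBF over all pigs, and its call (adjusted p = 0.048) ended without LBF replicate 1, 2 or 3, at an adjusted p of 0.11, 0.095 and 0.11. Without RBF replicate 3 its log2 fold change went from 2.51 to 1.23.

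RNF17, a tudor domain protein of the germline, held 8 intronic DMRs on chromosome 11 (87242512 to 87350495), of which 7 were higher and 1 lower in LBF. The largest fold lay at 87318481 to 87318762, with 39.5, 48.7 and 46.7 in the LBF pigs, against 6.09, 5.03 and 3.73 in the RBF pigs. The breeds were far apart and each was tight (log2 fold change 2.96 ± 0.23 SE, adjusted p = 0.0012). Only 3.37 kb before it, at 87314947 to 87315113, the depths were 40.7, 52.5 and 48.9 in the LBF pigs, against 102, 114 and 120.4 in the RBF pigs. These were the highest RBF depths of the gene, and every RBF library lay far above every LBF library (log2 fold change -1.23 ± 0.20 SE, adjusted p = 0.0023). Both calls stood with equal library medians (1.59 and -2.70), whereas of the other 6 DMRs none passed and 1 turned (-0.31).

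**Figure D2:**
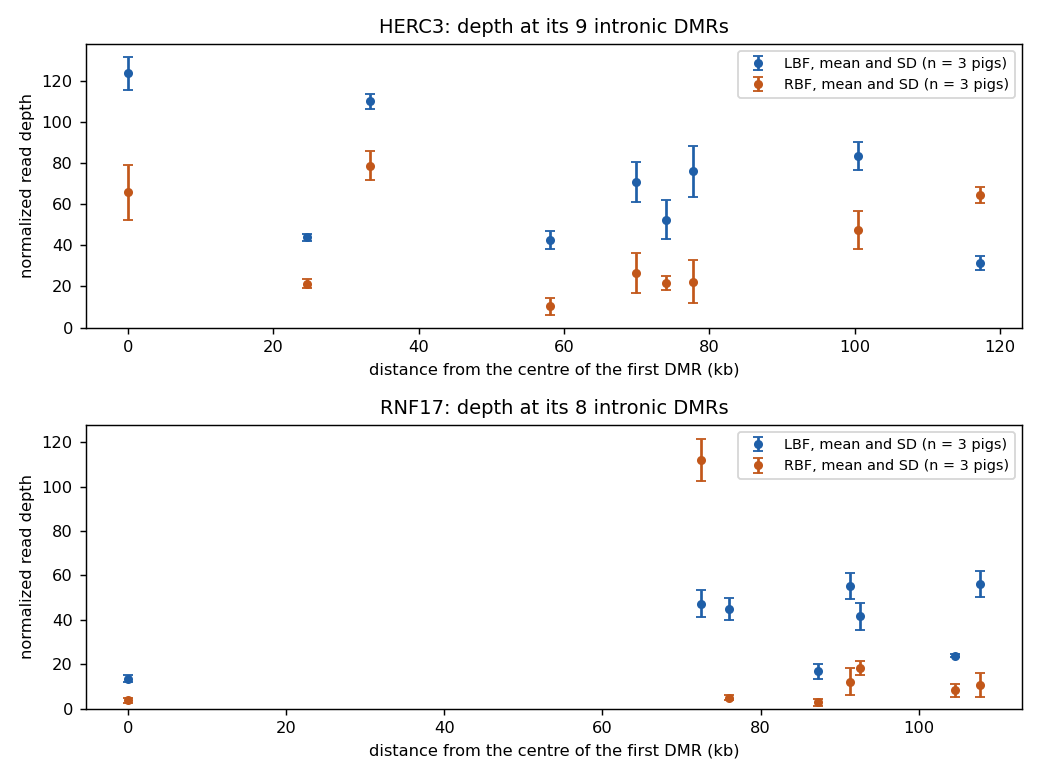
Normalized read depth (y axis; points are the mean and bars the SD of 3 pigs) at the 9 DMRs of HERC3 and the 8 DMRs of RNF17, by distance in kb from the centre of the first DMR (x axis). LBF lies above RBF at all DMRs but 1 in each gene, namely the last DMR of HERC3 (31.5 against 64.7) and the second DMR of RNF17 (47.4 against 112). With library medians set equal 6 more DMRs of HERC3 and 1 more of RNF17 turned to RBF.

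Other RING genes were lower in LBF. RNF169, which acts at DNA breaks, had a DMR in its last exon, on a CpG island shore (chromosome 9, 10227241 to 10227382), with 0, 0.737 and 7.63 in the LBF pigs, against 26.6, 23.2 and 17.7 in the RBF pigs. The third LBF library stood above the others and still below every RBF library (log2 fold change -3.23 ± 0.77 SE, adjusted p = 0.0062). RNF121 had 1.38 ± 1.23 in LBF against 15.8 ± 0.971 in RBF at an intron also annotated to RN7SKP170, a copy of a noncoding RNA gene (log2 fold change -2.99). RNF14, a coactivator of the androgen receptor, had 22.9 ± 5.53 in LBF against 61.6 ± 8.56 in RBF at an intron on chromosome 2 (log2 fold change -1.4). RNF41, also called NRDP1, which degrades the receptor ERBB3, was lower in LBF at its first intron, with 1.18, 3.09 and 3.56 in the LBF pigs, against 19.8, 28.1 and 18.9 in the RBF pigs. All LBF libraries lay far below all RBF libraries (log2 fold change -2.74 ± 0.34 SE, adjusted p = 0.0015). Its other DMR, 145.84 kb away and also annotated to ERBB3 itself, was higher in LBF (39.2 ± 2.92 in LBF against 7.27 ± 5.34 in RBF, log2 fold change 2.55). RNF32, a gene expressed in testis, held 2 DMRs higher and 1 lower in LBF within 5438 bp of chromosome 18. The higher ones were on a CpG island shore (log2 fold changes 0.86 and 1.33) and turned with equal library medians (-0.60 and -0.14), while the lower one, at 8.82 ± 4.15 in LBF against 39.9 ± 8.30 in RBF, did not (log2 fold change -2.15).

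TRIM ligases, which carry a RING finger, B-boxes and a coiled coil, held 7 DMRs at 4 genes, 5 higher and 2 lower in LBF. TRIM2, a ligase of neurofilament light chain, held 4 of them on chromosome 8. One lay in a promoter and in introns of its transcripts, 80300268 to 80300439, with 9.99, 18.1 and 18.98 in the LBF pigs, against 1.52, 2.86 and 0 in the RBF pigs. Depth was low in all libraries, lowest in RBF, and the ranges did not meet (log2 fold change 2.91 ± 0.53 SE, adjusted p = 0.0029). The next DMR, 80302453 to 80302611, was higher in LBF as well (log2 fold change 2.73), but a DMR in the first intron, 49.29 kb further, had 14.6, 18.1 and 10.4 in the LBF pigs, against 36.9, 43.6 and 44.9 in the RBF pigs. There all LBF libraries were below all RBF libraries (log2 fold change -1.5 ± 0.25 SE, adjusted p = 0.0024). TRIM8, a regulator of cytokine signaling, was higher in LBF on a CpG island shore (27.1 ± 3.13 in LBF against 7.11 ± 2.27 in RBF), and TRIM65 was lower downstream of the gene (3.48 ± 1.13 in LBF against 12.7 ± 2.59 in RBF). Under equal library medians 4 of the 7 were higher and 3 lower, and the turned DMR was that of TRIM4 (-0.38).

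Among cullins and the COP9 signalosome, which removes NEDD8 from cullins, all 4 DMRs had the higher depth in LBF, and with equal library medians 3 of them turned. COPS8, a signalosome subunit, had 78.5 ± 11.3 in LBF against 20.4 ± 3.12 in RBF over 17 CpGs downstream of the gene (log2 fold change 1.89 ± 0.22 SE, adjusted p = 0.0014). COPS4 had 53.6 ± 5.68 in LBF against 21.2 ± 7.21 in RBF at an intron (log2 fold change 1.35). CUL4B, the X-linked scaffold of ligases that act at chromatin, had the smallest log2 fold change in size of all members and was the only DMR that did not pass limma. Its depths were 63.2, 62.5 and 61.5 in the LBF pigs, against 47.2, 49.5 and 50.8 in the RBF pigs. The LBF libraries were within 2 units of each other and above all RBF libraries, by a small margin (log2 fold change 0.34 ± 0.17 SE, adjusted p = 0.095). At equal library medians it passed as lower (-1.13, adjusted p = 0.017), and COPS4 and CUL7 turned without passing.

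Adaptors of cullin ligases held 25 DMRs. F-box proteins accounted for 9 of them at 8 genes, with the higher depth in LBF at 6 and in RBF at 3. Equal library medians gave 2 higher and 7 lower. FBXO8 had 12.7 ± 2.12 in LBF against 1.55 ± 1.57 in RBF at an intron and the largest fold of the group (log2 fold change 2.64). FBXL7, with a DMR on a CpG island shore in the first intron, had 61.3 ± 3.50 in LBF against 19.3 ± 14.2 in RBF, and its call ended without LBF replicate 1 or 3, at an adjusted p of 0.057 and 0.056. Its RBF libraries were spread from 4.67 to 32.9, and without RBF replicate 3 the log2 fold change went from 1.96 to 1.21. FBXO27 had 109.7 ± 3.89 in LBF against 70.2 ± 8.81 in RBF, and its call ended without LBF replicate 1 (adjusted p = 0.050). On the scale of equal library medians FBXO27 turned and passed as lower (-0.84, adjusted p = 0.031). BTRC, the adaptor that recognizes phosphorylated beta-catenin and inhibitors of NF-kappaB, was lower in LBF at its first intron, with 19.2, 17.2 and 19.4 in the LBF pigs, against 34.1, 29.1 and 31.5 in the RBF pigs. The libraries of each breed were close to one another (log2 fold change -0.73 ± 0.18 SE, adjusted p = 0.0077). FBXW2 had the same log2 fold change at its last intron (-0.73), at 11.1 ± 1.24 in LBF against 18.99 ± 1.41 in RBF. FBXO38 held a DMR lower in LBF (17.1 ± 5.64 in LBF against 52.8 ± 2.95 in RBF, log2 fold change -1.61) and, 6.68 kb away, another that was higher under the authors' scaling (92.99 ± 5.66 in LBF against 51.3 ± 2.75 in RBF, 0.85) and turned with equal library medians (-0.63).

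BTB-Kelch adaptors of CUL3 held 10 DMRs at 5 genes, all higher in LBF, and 6 higher and 4 lower with equal library medians, when none passed limma. KLHL29 held 5 of them over 122606 bp of chromosome 3. The largest fold was at an intron from 122202037 to 122202183, with 89.3, 90.8 and 108 in the LBF pigs, against 19.8, 32.2 and 1.03 in the RBF pigs. The RBF libraries ranged widely, with the third near 0 and the second the highest, and the call (adjusted p = 0.02) ended without LBF replicate 1 or 3, at an adjusted p of 0.050 and 0.057. Without RBF replicate 3 the log2 fold change went from 3.11 to 1.88. In the first intron of KLHL29 a DMR with 8 CpGs had 35.7 ± 5.73 in LBF against 7.42 ± 2.54 in RBF, with the smallest adjusted p of the gene (log2 fold change 2.15 ± 0.27 SE, adjusted p = 0.0015). KLHL4 and KLHL13, both on the X chromosome, had log2 fold changes of 1.49 and 1.89 and of 0.97, and that of KLHL13 turned with equal library medians (-0.48). KLHL24, a regulator of keratins, had 38.99 ± 8.33 in LBF against 9.86 ± 3.92 in RBF (log2 fold change 1.92).

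SOCS-box adaptors held 6 DMRs at 6 genes, 5 higher and 1 lower in LBF (or 2 and 4 at equal library medians). ASB18 had 59.8, 68.2 and 70.4 in the LBF pigs, against 7.31, 6.09 and 14.1 in the RBF pigs at an intron on chromosome 15. All LBF libraries were more than 4 times the highest RBF library (log2 fold change 2.8 ± 0.32 SE, adjusted p = 0.0014). The neighbors ASB9 and ASB11 on the X chromosome, whose DMRs lay 28.6 kb apart, had log2 fold changes of 1.18 and 2.81, and that of ASB9 turned with equal library medians (-0.28). ASB2, a notch-induced adaptor that degrades filamins, was lower in LBF at an intron on chromosome 7, 122030674 to 122030799, with 0, 44.1 and 0 in the LBF pigs, against 87.1, 94.03 and 119.5 in the RBF pigs. The second LBF library alone held reads among the LBF libraries and still lay below the lowest RBF library. The log2 fold change of -4.82 was the lowest of all members (standard error 1.46, adjusted p = 0.015), and the call ended without LBF replicate 1 or 3, at an adjusted p of 0.055 and 0.054. SOCS7, which binds insulin receptor substrates, had 21.5 ± 2.73 in LBF against 9.86 ± 2.91 in RBF at its last intron (log2 fold change 1.08, and -0.32 with equal library medians).

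**Figure D3:**
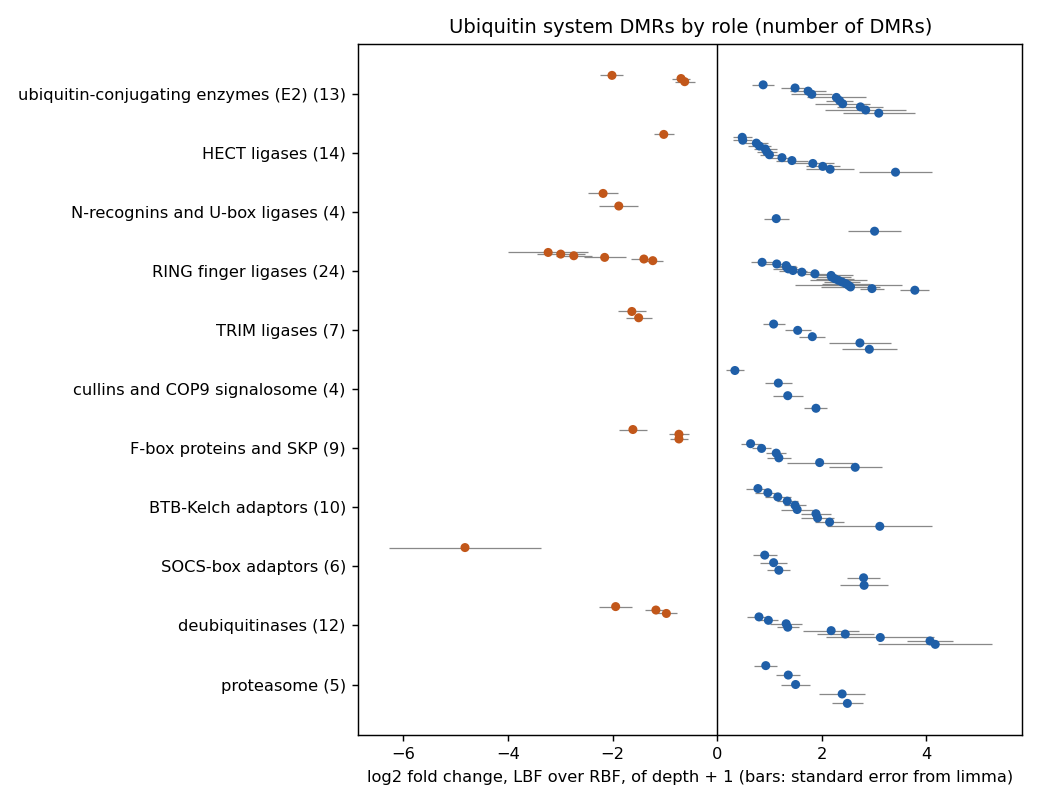
Log2 fold change, LBF over RBF, of depth + 1 (x axis; bars are the standard error from limma) for every ubiquitin system DMR, grouped by role with the number of DMRs in parentheses. Cullin, BTB-Kelch and proteasome DMRs all lie to the right of 0, whereas the widest range is that of the SOCS-box adaptors, from -4.82 to 2.81. With library medians set equal 3 cullin and signalosome, 4 BTB-Kelch and 2 proteasome DMRs turned to the left.

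Deubiquitinases, all of the USP family, held 12 DMRs at 10 genes, with 9 higher and 3 lower in LBF (or 5 and 7 at equal library medians). USP24 had the highest log2 fold change of all members on the log2(depth + 1) scale, at an intron on chromosome 6, 145355083 to 145355216. Its depths were 57.8, 45.4 and 34.2 in the LBF pigs, against 0, 15.5 and 0 in the RBF pigs. RBF reads came from the second library alone, and the error was wide (log2 fold change 4.17 ± 1.09 SE, adjusted p = 0.0087), and the call ended with equal library medians (log2 fold change 3.28, adjusted p = 0.080). USP35 followed, at its promoter, with 46.9, 45.7 and 39.03 in the LBF pigs, against 0.321, 2.88 and 2.72 in the RBF pigs. Every LBF library was more than 10 times every RBF library (log2 fold change 4.07 ± 0.44 SE, adjusted p = 0.0013), and this call stood with equal library medians (2.85, adjusted p = 0.0081). USP15, which acts on TGF-beta receptors and SMADs, had 22.1 ± 1.95 in LBF against 5.15 ± 4.41 in RBF at an intron (log2 fold change 2.18). USP12 was higher in LBF at 2 introns (2.45 and 0.98, of which the latter turned with equal library medians to -0.45) and USP44, which sustains the mitotic spindle checkpoint, at 1 (1.35, and at 0 with equal library medians, where it counts among the lower). USP47, which acts in base excision repair, held a DMR higher in LBF with 43.6, 37.02 and 47.3 in the LBF pigs, against 20.5, 0 and 4.79 in the RBF pigs. The RBF libraries were far from each other, and the call (log2 fold change 3.12, adjusted p = 0.022) ended without LBF replicate 1, 2 or 3, at an adjusted p of 0.058, 0.050 and 0.060. Without RBF replicate 2, which had a depth of 0, the log2 fold change was 1.96. Another intron of USP47, 16.47 kb away, was lower in LBF at 16.02 ± 2.81 in LBF against 36.9 ± 1.83 in RBF (log2 fold change -1.17 ± 0.21 SE, adjusted p = 0.0028).

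Proteasome genes held 5 DMRs at 5 genes, all higher in LBF, and 3 higher and 2 lower with equal library medians. PSMA3, an alpha subunit of the core particle, had 23.5, 14.5 and 14.8 in the LBF pigs, against 1.52, 3.12 and 2.26 in the RBF pigs at an intron on chromosome 1. All RBF libraries were at or below 3.12, and the first LBF library stood above the other LBF libraries (log2 fold change 2.49 ± 0.29 SE, adjusted p = 0.0014). This call stood with equal library medians (1.24, adjusted p = 0.031). PSMB7, the subunit with trypsin-like activity, had 28.7 ± 2.05 in LBF against 5.33 ± 3.27 in RBF (log2 fold change 2.39). PSMD1 and PSMD13, subunits of the regulatory particle, had 28.5 ± 2.08 in LBF against 10.7 ± 2.43 in RBF and 68.2 ± 5.47 in LBF against 35.6 ± 6.91 in RBF, and both turned with equal library medians (-0.05 and -0.53). The PSMD13 DMR is also annotated to IFITM3, a gene of antiviral defense. PSME3, an activator of the proteasome in the nucleus, had its DMR in the promoter.

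Promoters held 5 of the 108 DMRs, at USP35, TRIM2, PSME3, USP2 and USP40. The DMRs of USP35, PSME3 and USP40 were annotated to the distal part of the promoter, that of USP2 to the intermediate and that of TRIM2 to the proximal part. Only that of USP40 was lower in LBF and the other 4 were higher. All 5 passed limma, beside 99.5% of all promoter DMRs in the table, of which 83.3% passed as higher and 16.2% as lower in LBF. The PSME3 promoter, of the CpG-rich class, had a DMR of 15 CpGs on chromosome 12, 20251771 to 20251931 with 36.8, 42.5 and 37.4 in the LBF pigs, against 15.5, 16.1 and 8.95 in the RBF pigs. The third RBF library was the lowest, and no RBF library came near the LBF range (log2 fold change 1.5 ± 0.27 SE, adjusted p = 0.0028). The promoter of USP2, a deubiquitinase under circadian control, had 36.4, 31.7 and 31.1 in the LBF pigs, against 13.7, 18.1 and 8.003 in the RBF pigs on chromosome 9, 51614903 to 51614980. The gap between the breeds was small against that of USP35 (log2 fold change 1.32 ± 0.31 SE, adjusted p = 0.006). The USP40 DMR, on chromosome 15, 148346165 to 148346290, was annotated to a distal promoter and also to an internal intron of its transcripts. It had 2.35, 3.35 and 5.93 in the LBF pigs, against 14.9, 17.2 and 18.9 in the RBF pigs. It was the only promoter DMR lower in LBF (log2 fold change -1.94 ± 0.31 SE, adjusted p = 0.0021). Under equal library medians the USP2 promoter turned (-0.10) and that of PSME3 no longer passed (0.07), so that only those of USP35 and TRIM2 passed as higher.

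Exons held 4 DMRs, of which UBE2D4 and UBE2Z were higher and USP13 and RNF169 lower in LBF. All passed limma, beside 99.2% of all exon DMRs, of which 71.6% passed as higher and 27.6% as lower. USP13, a deubiquitinase of the autophagy protein BECN1, had 13.4, 15.7 and 18.98 in the LBF pigs, against 31.1, 30.3 and 35.1 in the RBF pigs at its last exon. Every RBF library exceeded every LBF library (log2 fold change -0.97 ± 0.21 SE, adjusted p = 0.0046). UBE2D4 had 32.4 ± 3.50 in LBF against 7.34 ± 5.68 in RBF at a DMR annotated to an internal exon and also to the first intron (log2 fold change 2.28). UBE2Z had 13.2 ± 1.23 in LBF against 3.41 ± 2.38 in RBF at its last exon. The exon of RNF169 was given above. Introns held 97 DMRs, 80 higher and 17 lower, and 96 passed limma, beside 99.5% of all intron DMRs, of which 83.5% passed as higher and 16% as lower. In the first intron 13 were higher and 6 lower in LBF, or 68.4% higher, beside 84.5% of 894 first-intron DMRs of genes with a human symbol. The median log2 fold change of these members was 1.74, beside 1.61 over those DMRs. Within 2 kb downstream of member genes 4 were higher and 2 lower, or 66.7% higher, beside 82.7% of 254 downstream DMRs of genes with a human symbol. In other introns the members lay near the background, at 85.9% against 82.8% for internal introns.

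**Figure D4:**
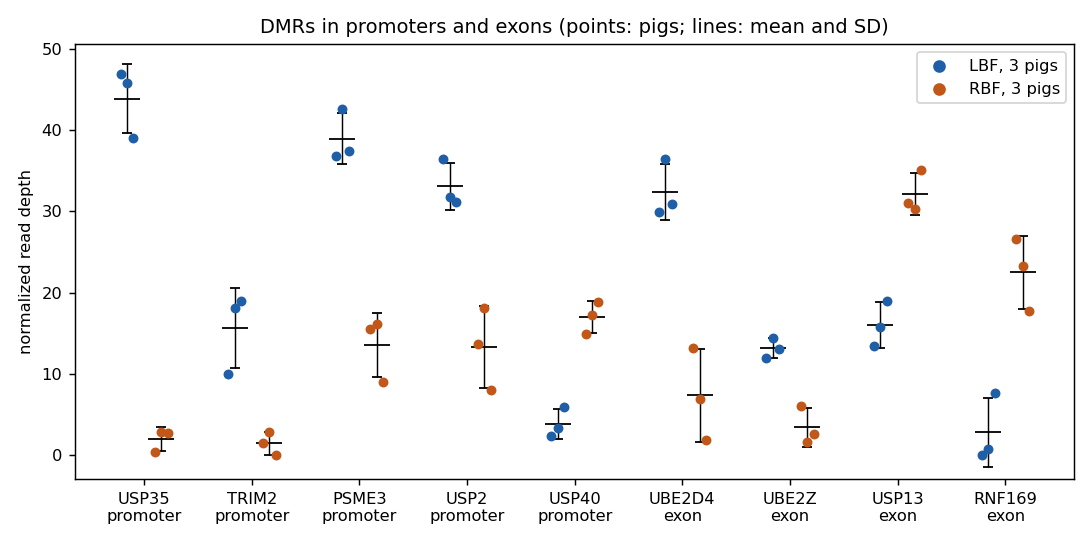
Normalized read depth (y axis) in each pig (points; bars are mean and SD, n = 3 pigs per breed) at the 5 promoter and 4 exon DMRs of the ubiquitin system (x axis). The breeds do not overlap at any of them; USP35 has the widest gap (43.9 against 1.97), and USP40, USP13 and RNF169 are the ones lower in LBF. At equal library medians the USP2 promoter turned.

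Of the 67 genes, 47 held 1 DMR, 16 held 2 or 3 and 4 held 4 or more. Among the 20 genes with more than 1 DMR, 9 were higher in LBF at all of them and 11 held DMRs of both directions, namely FBXO38, HERC3, RNF17, RNF32, RNF41, TRIM2, UBE2E2, UBE2QL1, UBR3, UBR4 and USP47. The distance between the nearest DMRs of opposite direction in a gene ran from 3.37 kb in RNF17 to 145.84 kb in RNF41. UBE2QL1, an E2 of the UBE2Q type, is an example within the first intron. Its DMR at 81794840 to 81795040 on chromosome 16 had 37.99, 39.8 and 52.01 in the LBF pigs, against 6.09, 7.29 and 10.1 in the RBF pigs. The LBF libraries were clearly the high ones (log2 fold change 2.34 ± 0.25 SE, adjusted p = 0.0013). At 81807268 to 81807330, 12.23 kb further, the depths were 56.2, 63.2 and 51.5 in the LBF pigs, against 87.8, 81.5 and 95.3 in the RBF pigs. The RBF libraries were now higher, by a smaller margin (log2 fold change -0.62, adjusted p = 0.016), and this call ended without LBF replicate 1 or 3, at an adjusted p of 0.051 and 0.064. On the scale of equal library medians FBXO38, RNF32 and UBR4 no longer held a DMR higher in LBF. DMRs of the same gene share their locus and are not independent.

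**Figure D5:**
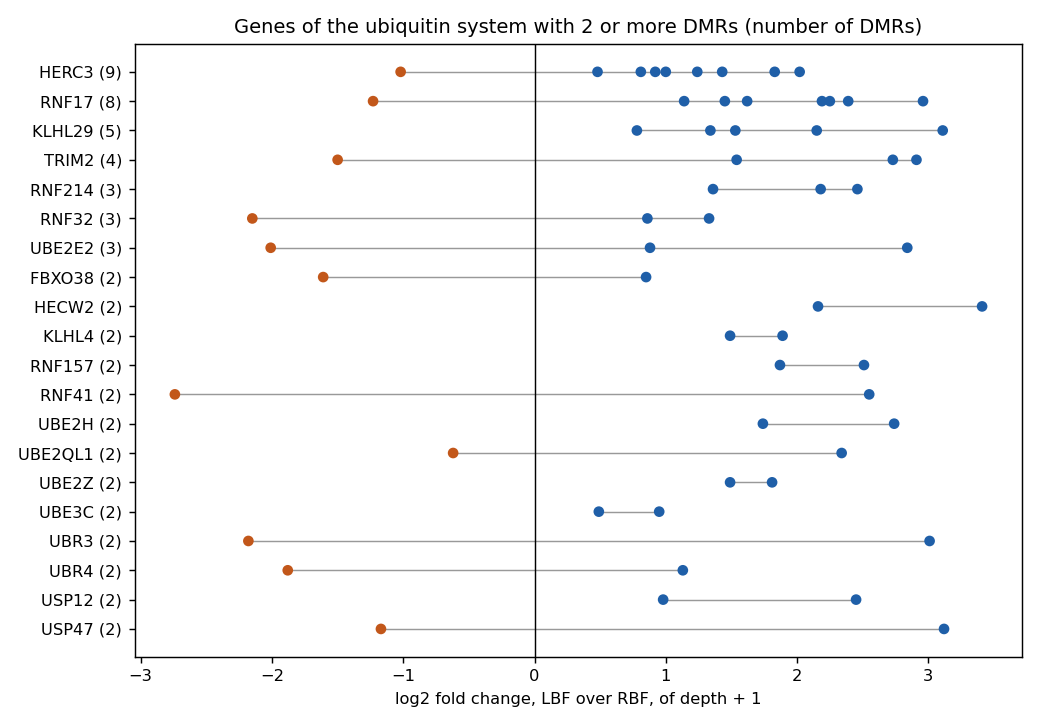
Log2 fold change, LBF over RBF, of depth + 1 (x axis) for each DMR of the 20 genes with 2 or more DMRs (y axis, number of DMRs in parentheses). In 11 genes the points lie on both sides of 0, and RNF41 spans the widest range, from -2.74 to 2.55. With library medians set equal all DMRs of FBXO38, RNF32, UBR4 and UBE3C lie on the lower side.

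The members resembled other gene DMRs in their size, with a median length of 146.5 bp (38 to 482 bp) against 144 bp and a median of 7 CpGs in both. Those with 10 or more CpGs were higher in LBF in 25 of 26 cases, or 96.2%, and those with fewer in 62 of 82, or 75.6%. The same held for gene DMRs with a human symbol in general, at 94.9% and 79.2%. The only member with 10 or more CpGs that was lower in LBF was that of RNF14. None of the 108 overlapped a CpG island, whereas 15 of the 4864 DMRs in gene elements did, and 11 lay on a CpG island shore, beside 209 of the 4349 gene DMRs with a human symbol. Shore members had a median log2 fold change of 0.92, beside 1.33 over the 209 shore DMRs. Of the shore members 90.9% were higher in LBF, beside 79.9% of those 209. The 7 members on the X chromosome were all higher in LBF, beside 88.7% of 336 gene DMRs there. Members made up 2.48% of the gene DMRs with a human symbol, and 6.67% on chromosome 11, 6.33% on chromosome 8 and 5.64% on chromosome 15. HERC3 and RNF17 held 17 of the 24 members on chromosomes 8 and 11, whereas the 11 members of chromosome 15 came from 9 genes. Chromosome 4 held none. In the pairs RNF157 and TRIM65, KLHL23 and UBR3, UBE2F and ASB1, UBE3C and RNF32, and ASB9 and ASB11, the DMRs lay within 500 kb of each other.

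A list of 35 genes of the system was drawn up for roles in insulin signaling or lipid metabolism, and was matched to the member DMRs alone. Of its genes 3 held such a DMR, namely SOCS7, CUL7 and BTRC. The list does not cover every gene with such a role. SOCS7 and CUL7, the scaffold of a ligase that degrades IRS1, were higher in LBF and BTRC was lower. CUL7 had 19.6, 18.3 and 15.6 in the LBF pigs, against 5.08, 8.33 and 9.25 in the RBF pigs at an intron on chromosome 7, 43555873 to 43556001. The breeds were apart by a margin similar to that of SOCS7 (log2 fold change 1.17 ± 0.26 SE, adjusted p = 0.0051), and with equal library medians both turned (-0.21 and -0.32). All 3 DMRs passed limma, as did 99.5% of all DMRs. The other genes of this list, such as SOCS1, SOCS3, ITCH, NEDD4 and FBXW7, held no member DMR, except that MARCH6 was not looked up among the symbols written as dates.

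Of 160 further genes of ubiquitin and related pathways outside the symbol families, 28 held 60 DMRs, 46 higher and 14 lower in LBF (76.7% higher), beside 83.0% of the gene DMRs with a human symbol. All 60 passed limma, beside 99.4% of those DMRs. Their median log2 fold change was 1.48. Set to equal library medians, 31 were higher and 29 lower, 7 and 14 of them past limma, with a median of 0.09. In that setting 56.6% of the 4349 gene DMRs with a human symbol were higher, 402 passed as higher and 849 as lower, and their median was 0.16. PARK2, the ligase parkin of mitochondrial quality control, held 14 of these DMRs, 10 higher and 4 lower. The lowest of the list was a PARK2 intron at 5.16 ± 2.44 in LBF against 48.8 ± 12.4 in RBF (log2 fold change -3.08 ± 0.39 SE, adjusted p = 0.0015), and the highest was an intron of UBAC2, a membrane protein of the endoplasmic reticulum, at 38.4 ± 2.78 in LBF against 2.47 ± 2.60 in RBF (log2 fold change 3.75 ± 0.49 SE, adjusted p = 0.0016). DDB1, the adaptor between CUL4 and its substrate receptors, held DMRs of both directions as well, from -2.54 to 1.45.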

How the data were processed

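Per the study's methods, the authors aligned MeDIP-seq reads to Sscrofa10.2 with SOAP2, tested CpGs between breeds and joined differing CpGs into DMRs of 5 or more CpGs. They deposited for each DMR the normalized read depth (signal, a mean coverage over its CpGs) in each library, its length and its number of CpGs, and a p-value with its FDR for the breeds. For profiles along chromosomes the study describes scaling read depth by the average number of reads in each group, and whether the depths of the DMR table were scaled in that way is not stated. The deposited p-value and FDR columns hold the authors' own comparison and were not used, except the FDR as a stricter threshold. The number of unused columns of library values was 0. Only called DMRs are listed, so genes without a DMR could not be compared, and the depth of the libraries before scaling is unknown.

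Members were matched by human homologue symbol. The members and lists were chosen with earlier results of these data known. Depths were compared as log2(depth + 1) with limma 3.58.1 in R 4.3.3 over all 14163 DMRs, with Benjamini-Hochberg adjustment and a threshold of 0.05. An exact permutation test of 3 against 3 pigs cannot go below 0.1, so none is given. Tables were made with Python 3.11.15, pandas 2.3.3, numpy 2.4.6 and scipy 1.17.1. Tested on simulated data with 14163 DMRs for this comparison, the fit recovered 51% of 100 regions at a log2 fold of 2 and 90% of 100 at 4, with 7 false calls. In that simulation only these regions differed between the breeds, whereas 99.5% of the listed DMRs passed limma. The adjustment was therefore stricter there, and its shares and false calls do not carry over to the members. Named in full were the 8 DMRs of largest and 8 of smallest log2 fold change at a mean depth of at least 10, all promoter and exon DMRs, genes with 4 or more DMRs or both directions, and list genes with a DMR. No member overlapped a CpG island, so that rule named none. Other members were named with their values known, to describe each class. Alternatives were other pseudocounts, a depth minimum, equal library medians, a stricter FDR, more CpGs, a replicate block, and leaving out each library.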

Additional observations from a re-analysis of the deposited data

How the results depend on the processing

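The scaling between libraries moved the results most. With equal library medians 33 of the 108 DMRs passed limma, 8 of them as higher in LBF, the median log2 fold change was -0.07 and 46.3% of DMRs were higher. Beside this, 402 of the 4349 DMRs in gene elements with a human symbol passed as higher and 849 as lower. Of the 60 DMRs named by rule, 21 kept direction and call, 22 lost the call and 17 reversed. The reversed log2 fold changes were -0.57, -0.45, -1.0, -0.03, -0.22 and -0.66 in HERC3, -0.66 and -0.11 in KLHL29, -0.60 and -0.14 in RNF32, -0.31 in RNF17, -0.58 in UBE2E2, -0.63 in FBXO38, -0.33 in UBR4, -0.32 in SOCS7, -0.21 in CUL7 and -0.10 at the USP2 promoter. The cause was not tested. A pseudocount of 5 gave a median of 1.12. Among the 60 members with an FDR under 0.005, 59 passed limma, 45 of them higher, fewer because fewer DMRs entered. Among the 26 members with at least 10 CpGs, all 26 passed, 25 higher and 1 lower, with a median of 2.09 and 96.2% higher, and of the promoters 100% (2 of 2) were higher. Leaving out each library in turn gave 98 to 107 DMRs past limma, 79 to 86 higher and 19 to 21 lower, a median of 1.32 to 1.45, and 80.6% higher each time. Of the 107 calls, 9 were lost without at least 1 library, all 9 without an LBF library. The share of all DMRs that passed is not given for the stricter FDR, the CpG minimum, the left-out libraries or the replicate block. The calls kept or lost in these settings therefore have no background beside them and cannot be read as particular to the members. Without HERC3 and RNF17, an alternative chosen after seeing the data, the median was 1.35 over 91 DMRs. The read depth behind the deposited values is unknown, so counting error could not be given. The widest standard errors were those of DMRs in ASB2 (1.46), USP24 (1.09), RNF157 and USP47 (1.03 in both) and KLHL29 (1.0). In each of them, libraries at or near 0 stood beside others of the same breed well above it. The RNF220 DMR, near 0 in all RBF libraries, had a standard error of only 0.28.

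With the replicate number as a block 103 DMRs passed, 83 higher and 20 lower, with a median of 1.35, and 4 calls were lost, among them those of UBE2QL1 (-0.62, adjusted p = 0.060 by limma) and HERC3 (0.48, adjusted p = 0.11 by limma). Same-numbered libraries of the breeds correlated at 0.063, -0.012 and 0.061 in their deviations, and differently numbered ones at -0.081 to 0.035. With 3 libraries per breed these correlations cannot decide whether the numbers pair the pigs. The paper names a paired test for promoter methylation of ATPase genes and does not state how the pigs were paired.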
